A study of Homo sapiens with 12 samples.

Results

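ERC1 (ENSG00000082805.15), NCR3LG1 (ENSG00000188211.4), MFAP2 (ENSG00000117122.9), ZFC3H1 (ENSG00000133858.11) and TTLL3 (ENSG00000214021.11) are 5 of the 57820 gene identifiers counted in RNA from 80S monosomes of HEK293, a human cell line derived from embryonic kidney. They were chosen by their read counts, which differed between cell lines in input or IP libraries, and so every difference between lines given here describes the values that chose them and carries no test. All 5 passed the filter on low counts. Symbols are those given with the list of members, since the tables hold identifiers only.

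The cells were Flp-In T-REx derivatives of HEK293 that stably overexpressed FLAG/HA-tagged RPL12 (uL11), a protein of the large ribosomal subunit. The tagged protein was S38D (aspartate at serine 38, a change used to mimic phosphorylation), S38A (alanine there, without the hydroxyl group that takes a phosphate) or wild type (WT). Input libraries came from polyadenylated RNA of a pooled 80S sucrose gradient fraction, and IP libraries from anti-FLAG immunoprecipitation of the same fraction. The 6 groups were S38D IP, S38A IP, WT IP, S38D input, S38A input and WT input, with 2 libraries each. All lines carried a tagged RPL12, and the labels describe no removal of the cells' own protein. The labels mention expansion of monoclonal colonies after hygromycin selection, so the RPL12 form and the line (clone) cannot be told apart. Nothing says that replicates came from separate cultures, so the spread between them may be technical. A mock IP from untagged cells is not among the libraries. The libraries are bulk, so fewer cells with an mRNA and less mRNA per cell cannot be told apart.

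Depth was 3186164 to 7430881 gene counts in IP and 7434431 to 8723130 in input libraries. Over the 12 libraries the 5 genes had between 13 and 3811 counts each, the lowest for MFAP2. Spike-in sequences took 1.44% to 5.43% of the counts in IP and 0.116% to 0.484% in input libraries. Both S38A IP libraries were deeper than every other IP library, at 6150315 and 7430881 gene counts. They also had the lowest spike-in shares of the IP libraries, at 2.15% and 1.44%. Levels are in CPM (read counts relative to library size), with sizes scaled by edgeR's TMM method. They are compared between libraries of 1 gene, never between genes, because CPM takes no account of transcript length.

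The members are known for separate roles. ERC1 (ELKS) is a coiled-coil scaffold that binds RAB6 and, at the cell cortex, helps to dock vesicles and to hold microtubule ends, and neurons have it at the presynaptic active zone. NCR3LG1 encodes B7-H6, a surface protein of the B7 family that engages the activating receptor NKp30 of natural killer cells. MFAP2 (MAGP-1) is a secreted glycoprotein of fibrillin microfibrils in the extracellular matrix. ZFC3H1 is a nuclear zinc finger protein that links the helicase of the RNA exosome to the poly(A)-binding protein PABPN1, in a pathway that retains and degrades polyadenylated nuclear RNA. TTLL3 is a ligase that attaches glycine to tubulin, a modification known from cilia and flagella.

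**Figure D1:**
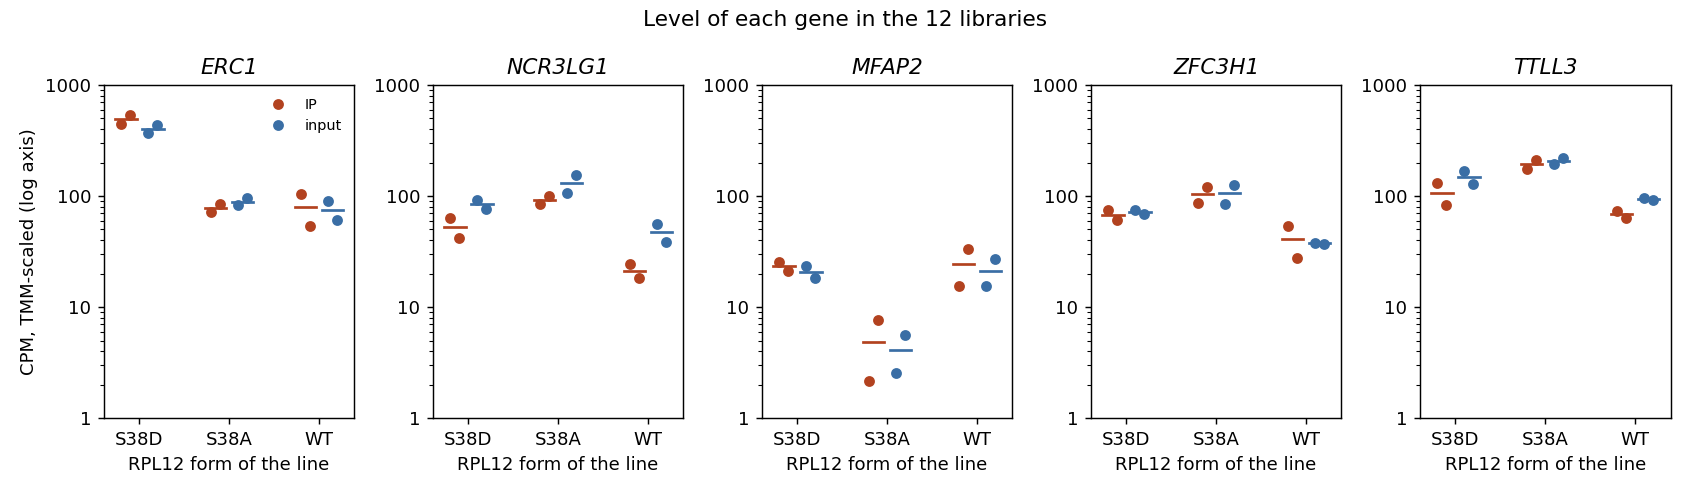
Level of each gene in CPM (log axis) in the S38D, S38A and WT lines, with IP libraries left of input libraries. Points are single libraries and bars are means of 2. ERC1 was high in the 4 S38D libraries, at 370.0 to 539.9 CPM, and MFAP2 was low in the 4 S38A libraries, at 2.14 to 7.60 CPM.

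ERC1, the vesicle and microtubule scaffold, stood apart in the S38D line, in inputs as in IPs. In IP libraries it had 449.6 and 539.9 CPM in S38D, 71.8 and 85.3 CPM in S38A, and 105 and 54.1 CPM in WT. In inputs it had 370.0 and 433.8 CPM in S38D, 82.2 and 96.1 CPM in S38A, and 90.0 and 61.1 CPM in WT. Each S38D library was above all 8 libraries of the other lines, while S38A and WT overlapped in both kinds of library. Of 16920 genes tested, 0.278% were likewise higher in S38D than in both other lines without overlap, in inputs and in IPs.

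S38D over WT was 6.24-fold in IP libraries (log2 2.64, SE 0.30) and 5.37-fold in inputs (log2 2.43, SE 0.20). S38D over S38A was 6.26-fold in IPs (log2 2.65, SE 0.30) and 4.50-fold in inputs (log2 2.17, SE 0.20). Among 13100 genes with a mean of at least 5 CPM, 2 had a difference between S38D and S38A inputs at least as large as that of ERC1, itself included, and the other was MFAP2. Against WT inputs there were 8 such genes. The WT libraries of ERC1 were the most spread of its groups, with a coefficient of variation of 45.3% in IP, against a counting error of 6.16%. S38A against WT was -0.0047 on the log2 scale (SE 0.29) in IPs and 0.26 (SE 0.19) in inputs. These values were 0.53 and 0.58 without the first WT library, and -0.42 and -0.01 without the second. S38D over WT was 3.18 in IPs and 2.75 in inputs without the first WT library, and 2.23 and 2.17 without the second.

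RefSeq lists more than 1 start for ERC1, and the counts per gene pool them. The starts are annotation only, and whether either serves as a start or promoter in these cells was not tested. The 250 bases before each of its listed starts are shown because they differ sharply in composition while the counts cannot be split between them. They are from RefSeq's GRCh38.p14 table, on the plus strand, at chr12:990973-991222 and chr12:1027498-1027747. The counts themselves were made on hg19, and no coordinate was carried over. Capitals mark GC boxes, searched as GGGCGG and its complement CCGCCC, so both strands are covered.
ERC1 start 1: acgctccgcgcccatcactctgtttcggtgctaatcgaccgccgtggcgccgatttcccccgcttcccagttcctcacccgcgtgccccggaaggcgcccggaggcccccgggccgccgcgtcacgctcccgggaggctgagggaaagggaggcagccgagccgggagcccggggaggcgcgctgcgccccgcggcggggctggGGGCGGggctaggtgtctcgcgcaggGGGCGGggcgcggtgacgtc
ERC1 start 2: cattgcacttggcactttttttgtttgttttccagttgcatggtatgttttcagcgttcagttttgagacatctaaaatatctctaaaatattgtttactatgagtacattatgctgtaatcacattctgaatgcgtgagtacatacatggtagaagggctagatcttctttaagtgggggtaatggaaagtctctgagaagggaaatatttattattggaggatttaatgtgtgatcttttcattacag
The first window held 77.2% G and C, 37 CpG dinucleotides and 2 GC boxes. The second held 34.4% G and C, 2 CpG dinucleotides and no GC box in these letters. Windows of MFAP2 also differed, at 46.8% and 76.4% G and C, as did those of TTLL3, at 46.4% to 76.8%. Of all 35116 windows of this length in the table, 42.6% held a GC box, and the median was 58.0% G and C with 11 CpG.

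MFAP2, the microfibril glycoprotein, was the member with low values in the S38A line. In IP libraries it had 25.7 and 21.4 CPM in S38D, 2.14 and 7.60 CPM in S38A, and 15.6 and 33.3 CPM in WT. In inputs it had 23.3 and 18.3 CPM in S38D, 2.54 and 5.65 CPM in S38A, and 15.7 and 26.9 CPM in WT. All 4 S38A libraries lay below all 8 of the other lines. Counted within each kind of library, 5.48% of 16920 tested genes were lower in S38A than in both other lines without overlap, in inputs and in IPs. S38D and WT overlapped in both kinds of library.

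In IP libraries MFAP2 in S38A was at 0.201 of its WT level (log2 -2.31, SE 0.49), and in inputs at 0.197 (log2 -2.34, SE 0.39). S38D over S38A was 4.68-fold in IPs (log2 2.23, SE 0.49) and 5.06-fold in inputs (log2 2.34, SE 0.39). The input value was the largest between these lines among the 13100 genes with a mean of at least 5 CPM. S38D against WT was -0.09 on the log2 scale in IPs (SE 0.45) and -0.01 in inputs (SE 0.35). The size of the S38A difference depended on both S38A replicates, of which the second was higher than the first in IP and input. Without the first, S38A against WT was -1.72 in IPs and -1.89 in inputs, and S38D against S38A was 1.63 and 1.88. Without the second, S38A against WT was -3.53 in IPs and -3.03 in inputs, and S38D against S38A was 3.44 and 3.03. S38A against WT in IPs was -2.73 without the first WT IP library and -1.64 without the second. The S38A groups had 13 and 59 counts in IP, and 24 and 55 in input, and their coefficient of variation reached 79.3% in IP, against a counting error of 16.7%.

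NCR3LG1, ZFC3H1 and TTLL3 shared 1 order of lines, with S38A above S38D and S38D above WT. In both kinds of library the S38A libraries lay above those of both other lines for all 3 genes, and the WT libraries lay below. Of 16920 tested genes, 4.11% were higher in S38A than in both other lines without overlap and 4.43% lower in WT than in both, in inputs and in IPs. The 3 genes were picked for differences between lines, so their common order describes the choice as well as the cells.

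NCR3LG1, which encodes the NKp30 ligand, had in IP libraries 63.1 and 41.5 CPM in S38D, 84.7 and 100.1 CPM in S38A, and 24.3 and 18.2 CPM in WT. In inputs it had 92.6 and 75.8 CPM in S38D, 106 and 154 CPM in S38A, and 56.2 and 38.9 CPM in WT. No pair of lines overlapped in either kind of library. S38A over WT was 4.41-fold in IPs (log2 2.14, SE 0.26) and 2.76-fold in inputs (log2 1.46, SE 0.23). S38D over WT was 2.49-fold in IPs (log2 1.32, SE 0.27) and 1.79-fold in inputs (log2 0.84, SE 0.23). S38D against S38A was -0.82 on the log2 scale in IPs (SE 0.25) and -0.63 in inputs (SE 0.22). With spike-in scaling, which moved the median of all genes to -0.83, S38D against WT turned to -0.16 in inputs (SE 1.05).

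ZFC3H1, the adaptor of the nuclear exosome, had in IP libraries 74.8 and 60.7 CPM in S38D, 86.5 and 120.0 CPM in S38A, and 53.9 and 27.9 CPM in WT. In inputs it had 74.7 and 69.5 CPM in S38D, 85.6 and 125 CPM in S38A, and 38.03 and 36.9 CPM in WT. The 2 WT inputs were nearly equal, and the 2 WT IP libraries differed most, with the first near the lower S38D library. S38A over WT was 2.57-fold in IPs (log2 1.36, SE 0.29) and 2.85-fold in inputs (log2 1.51, SE 0.19). S38D over WT was 1.68-fold in IPs (log2 0.75, SE 0.30) and 1.95-fold in inputs (log2 0.96, SE 0.19). With spike-in scaling the input value fell to 0.11 (SE 1.06). The IP value for S38D over WT was 1.27 on the log2 scale without the first WT IP library and 0.33 without the second. S38D against S38A was -0.61 in IPs (SE 0.28) and -0.55 in inputs (SE 0.18), and the input value was -0.80 without the first S38A input and -0.25 without the second.

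TTLL3, the tubulin glycine ligase, had in IP libraries 132 and 83.0 CPM in S38D, 176 and 209.7 CPM in S38A, and 73.2 and 63.6 CPM in WT. In inputs it had 166 and 129 CPM in S38D, 193 and 219.99 CPM in S38A, and 96.9 and 92.3 CPM in WT. The lines did not overlap within a kind of library, although the second S38D IP library came close to WT. S38A over WT was 2.82-fold in IPs (log2 1.496, SE 0.25) and 2.22-fold in inputs (log2 1.15, SE 0.16). S38D over WT was 1.57-fold in IPs (log2 0.65, SE 0.25) and 1.58-fold in inputs (log2 0.66, SE 0.16). With spike-in scaling the input value turned to -0.21 (SE 1.04). S38D against S38A was -0.84 in IPs (SE 0.25) and -0.49 in inputs (SE 0.15). Without the first S38D IP library the IP values were 0.27 against WT and -1.21 against S38A, and without the second they were 0.95 and -0.54. RefSeq also annotates a read-through gene of ARPC4 and TTLL3, and no source used here says how reads shared by both were assigned, which makes the TTLL3 counts uncertain.

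**Figure D2:**
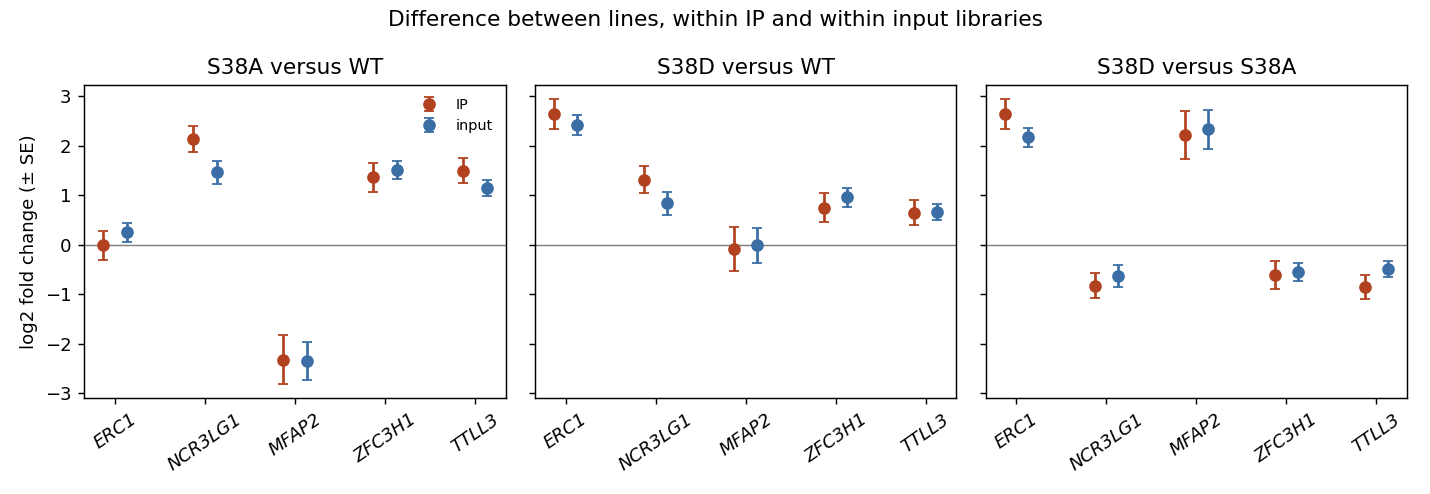
Log2 fold change between lines for each gene, with its standard error, fitted within the 6 IP libraries and within the 6 input libraries. ERC1 lay above 2 in both panels with S38D as the first line, MFAP2 lay below -2 in S38A versus WT, and NCR3LG1, ZFC3H1 and TTLL3 were positive against WT and negative in S38D versus S38A.

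Counted over the members, 4 of 5 did not overlap between S38A and WT in IPs and in inputs, where 48.5% of 15081 and 47.8% of 16728 tested genes did not. Between S38D and WT the numbers were 4 of 5 in each kind of library, against 29.5% and 33.9% of genes. Between S38D and S38A they were 5 of 5 in each, against 44.8% and 32.4%. These are the contrasts that chose the members, so nothing is read from the counts, and comparisons between lines share libraries.

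The promoter windows of NCR3LG1 and ZFC3H1, genes whose levels had the same order of lines, are shown to compare their composition. They are the 250 bases before the start in RefSeq's GRCh38.p14 table, at chr11:17351550-17351799 on the plus strand and chr12:71663849-71664098 on the minus strand. Capitals mark GC boxes as above.
NCR3LG1: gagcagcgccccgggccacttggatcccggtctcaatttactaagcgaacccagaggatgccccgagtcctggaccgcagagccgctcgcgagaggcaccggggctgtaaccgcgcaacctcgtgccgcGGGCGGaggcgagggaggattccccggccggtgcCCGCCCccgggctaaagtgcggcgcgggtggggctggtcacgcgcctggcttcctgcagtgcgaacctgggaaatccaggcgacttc
ZFC3H1: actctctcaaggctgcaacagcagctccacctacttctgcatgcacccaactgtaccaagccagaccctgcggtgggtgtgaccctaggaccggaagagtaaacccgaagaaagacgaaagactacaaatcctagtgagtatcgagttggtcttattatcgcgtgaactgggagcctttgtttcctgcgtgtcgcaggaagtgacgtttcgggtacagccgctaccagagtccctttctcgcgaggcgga
The NCR3LG1 window held 70.0% G and C and 2 GC boxes, and the ZFC3H1 window held 54.0% and no GC box in these letters. TTLL3, on chromosome 3, has 3 listed windows with 46.4%, 62.4% and 76.8% G and C. All 5 members matched the table, with 9 windows. ERC1 and ZFC3H1 are both on chromosome 12, NCR3LG1 is on chromosome 11 and MFAP2 on chromosome 1.

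**Figure D3:**
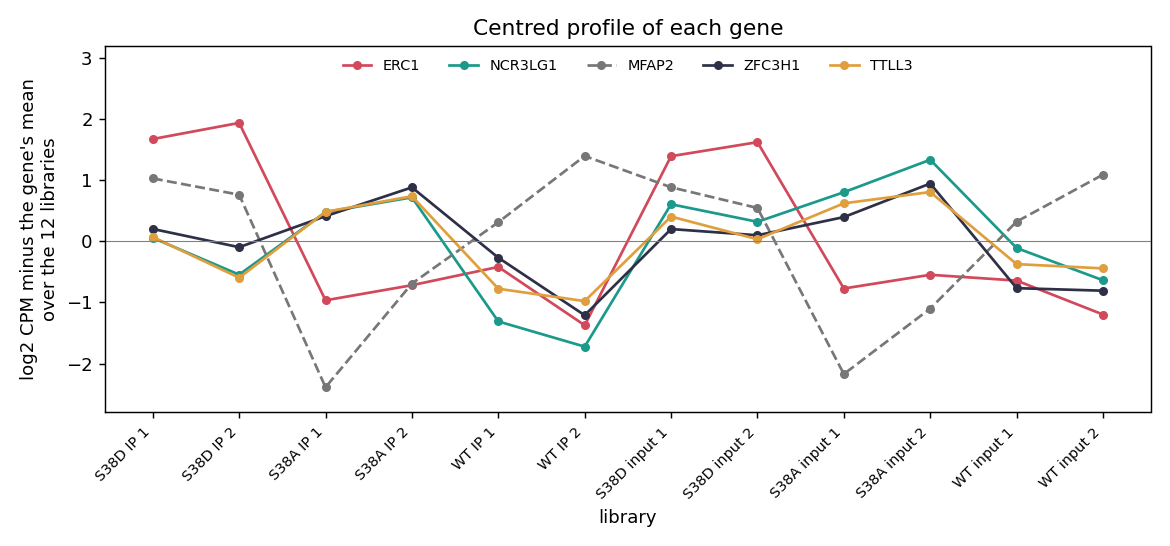
Log2 CPM of each gene minus its own mean over the 12 libraries, by library. NCR3LG1, ZFC3H1 and TTLL3 run close together, ERC1 peaks in the 4 S38D libraries, and MFAP2 dips in the 4 S38A libraries.

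Likeness of profiles was measured as the root mean square difference of centred log2 CPM over the 12 libraries, where 0 is the same profile. Among the members, ZFC3H1 and TTLL3 were the closest pair at 0.29, followed by NCR3LG1 and TTLL3 at 0.34 and NCR3LG1 and ZFC3H1 at 0.47. MFAP2 and NCR3LG1 were the farthest at 1.90. ERC1 differed from every other member by 1.24 to 1.38.

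No other gene with a mean of at least 5 CPM had a profile near that of ERC1, by the threshold below. The share of all genes that likewise lack a near profile was not counted. The distances for ERC1 and MFAP2 use the values that chose these genes, so they describe the choice and test nothing. The root mean square deviation of ERC1 from its own mean was 1.20. Of 13095 other genes with a mean of at least 5 CPM, none lay at a distance under 0.5 times that deviation, and the nearest was at 0.82. For MFAP2 the deviation was 1.23, again with no gene under 0.5 times it, and the nearest was ENSG00000083454.17 at 0.72. That gene had 0.494 and 7.60 CPM in S38A IP and 8.72 and 10.2 CPM in WT IP, with the second S38A replicate above the first, as for MFAP2.

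The other profiles had closer matches. For ZFC3H1 the nearest gene was ENSG00000215252.7 at 0.13, against a deviation of 0.64 for ZFC3H1 itself, and 41 genes lay under 0.5 times that. For NCR3LG1 it was ENSG00000110723.7 at 0.27, against 0.87, with 59 such genes. For TTLL3 the nearest gene lay at 0.17, against 0.59, with 113 such genes. The table used here pairs these identifiers with no name.

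Averaged over the 3 lines, the comparison of IP with input is not among the differences between lines by which the members were chosen. It is the mean of the 3 values within lines, so it draws on the same libraries as the choice. Within a single line its values are among those that chose the members, so p-values there are not free of the choice. The comparison addresses whether an mRNA was recovered with tagged RPL12 in proportion to its share of the 80S fraction. The main fit did not pair each IP with its own input. In it, 1 of the 5 members was lower in IP over the 3 lines and none was higher (edgeR quasi-likelihood test, adjusted p under 0.05). Of 16920 tested genes, 15.9% were called in each direction and 31.8% in either. With each IP paired with its own input, NCR3LG1 and TTLL3 were called lower and no member higher. That fit called 24.0% of genes lower and 46.5% in either direction.

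NCR3LG1 was the gene called in the main fit, at 0.580 of its input level in IP (log2 -0.79, SE 0.15, edgeR adjusted p = 0.0021). The log2 ratio of IP to input was negative in 6 of 6 fractions, between -1.20 and -0.33. Over all lines the NCR3LG1 mean was 55.3 CPM in IP and 87.2 CPM in input libraries. IP and input libraries overlapped over the 3 lines together, since the lines differ, but not within any line. How many of all genes had no such overlap, or a negative ratio in 6 of 6 fractions, was not counted. Of the 13100 genes with a mean of at least 5 CPM, 7.27% had an IP difference at least as large. The direction and the call were the same under all 17 other settings tried, where the log2 value lay between -1.002 and -0.69.

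Within the lines, NCR3LG1 in IP against input was -0.68 in S38D (SE 0.26, edgeR adjusted p = 0.14), -0.49 in S38A (SE 0.25, adjusted p = 0.37) and -1.19 in WT (SE 0.28, adjusted p = 0.022). The gene was chosen partly on these levels, so its p-values within a line describe the choice as well. The WT value alone passed here, and the S38D value also passed with total counts or with no filter (edgeR adjusted p = 0.046 and 0.021). With total counts the median of all genes in S38D was -0.31. The WT value did not pass when any single WT library was left out (edgeR adjusted p = 0.077 to 0.13). With the 80S fraction as a replicate block, which pairs each IP with its own input, all 3 passed, with edgeR adjusted p = 0.0063 in S38D, 0.033 in S38A and 0.0011 in WT. With the block, 20.0% of genes were called in S38D, 12.3% in S38A and 28.5% in WT, and those lower in IP were 9.28%, 6.37% and 14.5%. The share of genes called in either direction without the block was 4.86% in S38D and 11.2% in WT, where 5.48% were lower in IP. In S38A it was 0%, with 2577 genes at unadjusted p under 0.05 in edgeR and 463 called by DESeq2. The difference between lines in IP over input was 0.70 for S38A against WT (SE 0.37), 0.51 for S38D against WT (SE 0.38) and -0.19 for S38D against S38A (SE 0.36). With the block these were 0.68 (SE 0.20), 0.45 (SE 0.21) and -0.22 (SE 0.18). The difference was not tested, because it is made of the values that chose the gene.

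TTLL3 was at the edge of the threshold. In IP it was at 0.789 of its input level (log2 -0.34, SE 0.12, edgeR adjusted p = 0.0505), with a negative ratio in 6 of 6 fractions, between -0.63 and -0.07. The share of all genes with 6 of 6 negative ratios was not counted. With the fraction as a replicate block the value was -0.35 and passed (edgeR adjusted p = 0.0017), where the block called 46.5% of all genes in either direction and 24.0% lower in IP. It also passed with total counts, with no filter and in DESeq2, which called 6540, 5591 and 5390 genes, against 5378 in the main fit. With total counts the median of all genes was -0.25, against -0.04 with TMM. With 1 library left out, the TTLL3 value lay between -0.47 and -0.25. Within the lines TTLL3 was at -0.45 in S38D (SE 0.21), -0.10 in S38A (SE 0.21) and -0.47 in WT (SE 0.22), and none passed with TMM and no block (edgeR adjusted p = 0.24, 0.86 and 0.18). With the block, S38D and WT passed (edgeR adjusted p = 0.018 and 0.016), and with total counts WT passed at -0.74 (edgeR adjusted p = 0.041). TTLL3 was chosen partly on these levels, so its p-values within a line describe the choice as well. Total counts called 2929 genes in WT, where the median of all genes was -0.30.

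ERC1, MFAP2 and ZFC3H1 did not pass over the 3 lines (edgeR adjusted p = 0.81, 0.58 and 0.98). For ERC1 the IP over input value was 0.06 (SE 0.16), for MFAP2 0.23 (SE 0.29) and for ZFC3H1 -0.01 (SE 0.16). Their fractions lay on both sides of 0. For ERC1 the ratio was above 0 in 3 of 6 fractions, with a range of -0.19 to 0.32, for MFAP2 in 4 of 6, with -0.22 to 0.41, and for ZFC3H1 in 3 of 6, with -0.40 to 0.50. These 3 genes did not pass in any single line or under any other setting. With total counts, under which the median of all genes was -0.25 against -0.04 with TMM, the ERC1 value was -0.17.

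**Figure D4:**
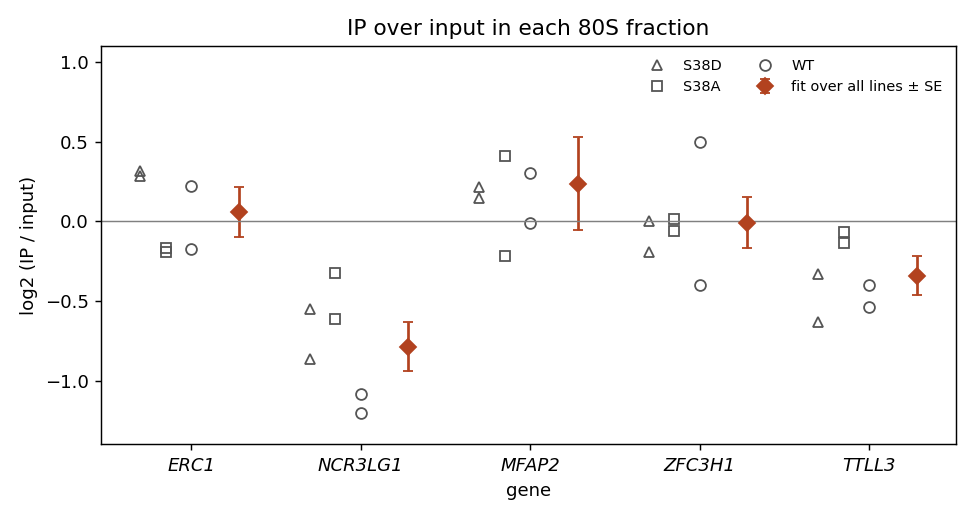
Log2 ratio of IP to input for each gene in each of the 6 fractions (open symbols, by line) and the fitted value over the 3 lines with its standard error (filled diamonds). NCR3LG1 and TTLL3 lay below 0 in 6 of 6 fractions, and the other genes lay on both sides.

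The order of the 6 group means shows how line and kind of library combined. Shares of all genes without overlap between IP and input were not counted, so this order is description only. For ERC1 the S38D IP mean of 495 ± 63.9 CPM lay above the S38D input mean of 402 ± 45.1 CPM (SD, n = 2 each), without overlap, and the 4 other groups, between 75.5 and 89.1 CPM, overlapped from one to the next. For NCR3LG1 the lowest mean was 21.2 ± 4.32 CPM in WT IP and the highest 129.9 ± 33.5 CPM in S38A input (SD, n = 2 each). There S38A IP overlapped S38D input, and S38D IP overlapped WT input. For ZFC3H1 IP and input overlapped within every line, and the groups of different lines did not overlap. For MFAP2 the 4 groups of S38D and WT overlapped in order, between 20.8 and 24.4 CPM, and S38A IP and S38A input overlapped at 4.87 ± 3.86 and 4.09 ± 2.20 CPM (SD, n = 2 each).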

How the data were processed

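Each library has a table of unnormalised counts, deposited by the authors, for 57820 Ensembl gene identifiers and 92 ERCC spike-in sequences. The hg19 build, STAR 2.4.2a, bcl2fastq 2.16.0.10 and DESeq2 are named, with no role, per the submitters' processing notes. Not given in the sources used here are the counter, its handling of strand and of multi-mapped reads, and which annotation release it read. ERCC counts stayed out of library sizes.

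Tests used edgeR 4.0.16 under R 4.3.3, with genes kept by filterByExpr at a minimum count of 10, TMM scaling, glmQLFit and glmQLFTest, Benjamini-Hochberg adjustment over all genes tested, with 0.05 as the threshold for a call. All 12 libraries entered a single fit for IP against input (16920 genes), and lines were compared within 6 IP (15081 genes) or 6 input libraries (16728 genes). Standard errors are the log2 fold change divided by the square root of F. A prior count of 2 was added for log2 CPM. The fit was tested on simulated counts. The members and gene lists were chosen with earlier results of these data known.

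Same-numbered IP and input libraries share a fraction per the labels' protocols, and their deviations correlated across genes at 0.54 in S38D, 0.64 in S38A and 0.28 in WT, so the fraction served as a replicate block in an alternative. Replicates differed by more than sampling noise in every group (chi-square over its degrees of freedom 5.74 to 17.4). Other alternatives were RLE size factors, total counts, no filter, DESeq2 1.42.0, spike-in scaling of the inputs, 1 fit of all 12 libraries and omission of each library. The rule for named genes took the 5 members and, for each, the 2 most alike genes by profile, of which 1 identifier each is printed for 3 members. The 59792 genes of the reference table carried 0 Ensembl identifiers, so 120 pathway and marker genes listed by symbol, and the members' chromosomal neighbours, matched none and are not analysed here, nor is the tagged gene or the HEK293 identity.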

Additional observations from a re-analysis of the deposited data

Results flagged for a closer look

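ERC1 was singled out because its mean log2 ratio of IP over input differed between the S38D and S38A lines. The log2 ratio was positive in both S38D fractions and negative in both S38A fractions, and the means differed by 0.48 (S38D minus S38A). In WT the ratio was 0.22 in the first fraction and -0.18 in the second. The fitted difference was 0.48 with a standard error of 0.38 without the replicate block, and 0.48 with a standard error of 0.16 when each IP was paired with its own input. For NCR3LG1 the fitted difference of S38A against WT was larger, at 0.70 (SE 0.37). Neither difference was tested, because both are made of the values that chose the genes.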

How the results depend on the processing

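Groups of 2 libraries limit every value here, and the cause of each change below was not tested. For IP versus input of the members, 322 values under other settings stayed on the same side of the threshold, 14 passed only there and 4, all NCR3LG1 in WT without a WT library, no longer did. Of member differences between lines, 341 moved by less than the spread between replicates and 34 by more. With spike-in scaling of the inputs, which moved the median of all genes to -0.83 for S38D versus WT, ERC1 was 1.43 higher on the log2 scale in S38D than in WT (SE 1.06). NCR3LG1 was at -0.16 (SE 1.05), TTLL3 at -0.21 (SE 1.04), ZFC3H1 at 0.11 (SE 1.06) and MFAP2 at -0.60 (SE 1.13). For S38A versus WT the same scaling moved the median of all genes to -0.44. There NCR3LG1 was at 0.94 (SE 1.06), ZFC3H1 at 1.13 (SE 1.07) and TTLL3 at 0.71 (SE 1.04). ERC1 was at -0.31 (SE 1.04) and MFAP2 at -2.41 (SE 1.20). Spike-ins made up 0.116% of the first WT input and 0.484% of the second.

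Counts of genes called moved as follows. In IP versus input, S38D had 823 genes, but 1620 with total counts, 1555 with no filter, 1698 in DESeq2 and 3379 with the replicate block. S38A had 0 genes, but 7 with total counts, 399 with no filter, 463 in DESeq2 and 2079 with the block. WT had 1903, but 2929 with total counts and 4818 with the block. In inputs, S38A versus WT had 0, but 924 with no filter and 419 in DESeq2. S38D versus WT had 1, but 87 with no filter, 10 in DESeq2 and 0 with the block or spike-in scaling. S38D versus S38A had 1, but 49, 2 and 0. In IPs, S38A versus WT had 1, but 373 with total counts, 896 with no filter, 443 in DESeq2, 119 with the block and 124 with all libraries in 1 fit. S38D versus WT had 1, but 32 with no filter, and S38D versus S38A had 1, but 48 with no filter and 12 in DESeq2. The block between lines used replicate numbers that share only a number, with correlations of -0.07 to 0.22.

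With 1 library left out, IP versus input called 4007 to 5770 genes over all lines, 0 to 1808 in S38D (0 without either S38D input or the second S38D IP), 0 to 138 in S38A and 0 to 2869 in WT (0 without the second WT input). In inputs the counts were 0 to 495 for S38A versus WT, 0 to 14 for S38D versus WT and 0 to 9 for S38D versus S38A. In IPs they were 0 to 1160, 0 to 40 and 0 to 9 in the same order, the highest for S38A versus WT being without the second WT IP library.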
